A study of Mus musculus with 20 samples.

Results

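The normal femoral shaft was represented by 10 of the 20 arrays of a study of mouse bone, namely those whose titles say Normal. The shaft is the diaphysis, the tube of compact bone between the ends of a long bone. The 10 arrays came from 5 Normal female and 5 Normal male samples, all wild type at the Hyp locus, on the C57BL/6J background, 5 weeks old, untreated and fed standard diets. They were littermates of mice carrying Hyp, the X-linked hypophosphatemia mutation, whose own 10 arrays were not compared here. Every sample was a pool of equal RNA amounts taken in like manner from 2 mice, so the 10 arrays stand for 20 mice and the spread between single mice is not seen. The samples fall into 5 series, each holding 1 array per group, matched for littermates and processed in parallel. Femora were cut where shaft and metaphysis meet, and saline was flushed through them to take out marrow as far as possible, so that blood-forming cells, vessels and muscle fibres left on the bone could remain in the tissue extracted. Fewer cells of a type and less RNA per cell cannot be told apart in such bulk RNA.

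Compact bone is laid down by osteoblasts, which secrete type I collagen and the proteins that hold mineral in it. Some osteoblasts become enclosed as osteocytes, which sense load and regulate phosphate, while osteoclasts dissolve mineral with acid and digest collagen with cathepsin K. At 5 weeks of age the mouse femur is still growing in width by new bone on its outer surface, where periosteum and muscle attach.

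Of 45037 probe sets other than controls, 18844 (41.84%) were called present (P, a transcript detected above the mismatch background) on all 10 normal arrays. A further 12348 were P on some arrays but not all, and 13845 were P on none. Those on all 10 comprised 16353 probe sets with 1 gene symbol, covering 9866 genes, 487 with several symbols and 2004 with none. Each gene below is given by its brightest probe set P on all 10, and a signal is the linear fluorescence of that probe set. Signals depend on the probes, so they order probe sets and not amounts of different transcripts. The share of probe sets called P was 51.8 to 56.9% on female arrays and 49.3 to 56.3% on male arrays. It was 49.3 to 53.6% on the 4 arrays of series 1 and 2 and 54.9 to 56.9% on the 6 of series 3 to 5, which did not overlap. The 3′ to 5′ signal ratio of the actin controls averaged 1.498 ± 0.079 in females and 1.586 ± 0.120 in males (SD, n = 5 each). By an exact 2-sided sign-flip test over the 5 series pairs, p was 0.125, where the smallest p possible is 0.0625.

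The 5 markers by which the tissue was checked were all detected. Col1a1, the alpha 1 chain of type I collagen, averaged 51917 ± 10087.7 over the 10 arrays (SD). Osteocalcin, the osteoblast hormone and matrix protein whose probe set is named only by the deposited description as Bglap1, averaged 57248 ± 9487. Dmp1, a phosphoprotein of osteocytes, averaged 19410.4 ± 1864, and Acta1, the actin of skeletal muscle, 48572 ± 9361.5. The beta globin probe set, which matches Hbb-b1 and 3 related genes, averaged 40249 ± 5808. All 5 were P on every array, so the RNA carried bone, muscle and red cell transcripts together.

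Bone matrix, muscle and the protein-making machinery led the list of the brightest genes. The 20 brightest held 4.74% of the summed signal of the 9866 genes, the 100 brightest 15.22% and the 1000 brightest 50.48%. Of the 20, 6 encode collagens or other matrix proteins of bone and fibrous tissue. Col1a2, the partner chain of Col1a1, was first at a mean of 60231 ± 12139.5, with a lowest value of 44131.5, a median of 56664 and a highest of 83624. Sparc, or osteonectin, a collagen-binding protein, came next at 58924 ± 10430.0. Col3a1, the collagen of periosteum and vessel walls, averaged 47872 ± 6760.2, Col5a2, which joins type I fibrils, 37319 ± 5067, and Postn, or periostin of the periosteum, 37218 ± 5561.

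Skeletal muscle supplied 7 of the 20 brightest genes by the list of muscle genes used here, all of them of the contractile apparatus or its energy supply. Beside Acta1 they were Myl1 (43193 ± 7982) and Mylpf (38608 ± 9382), light chains of fast myosin, Myh4 (42753 ± 8899), the heavy chain of the fastest fibres, Tnnt3 (40518 ± 10881.7) and Tnni2 (39909.8 ± 11179), fast troponins, and Ckm (39180.1 ± 9684), creatine kinase. Car3, a carbonic anhydrase of muscle and fat, averaged 39995 ± 5077. Aldoa, an aldolase of glycolysis, averaged 37764 ± 10015.2. The last 5 were ND5, a mitochondrial subunit of complex I (53883 ± 6741), Uqcrb of complex III (38313 ± 7969), Tpt1 (44527 ± 6655), Rps29 of the ribosome (41688 ± 5103) and Eef1a1, the elongation factor that brings tRNA to it (38523 ± 3998).

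Several probe sets of comparable signal carried no single symbol and so stand outside that order. They included 2 for alpha globin (43966 ± 7128 and 42134 ± 6601) and 1 named Spp1, or osteopontin, by the deposited description (37968 ± 4565). Of the 20 brightest genes, 12 had their lowest signal on Normal female array 4, and 14 had their highest on Normal male array 1. The lowest and highest arrays were thus shared by collagens, muscle genes and housekeeping genes alike.

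**Figure D1:**
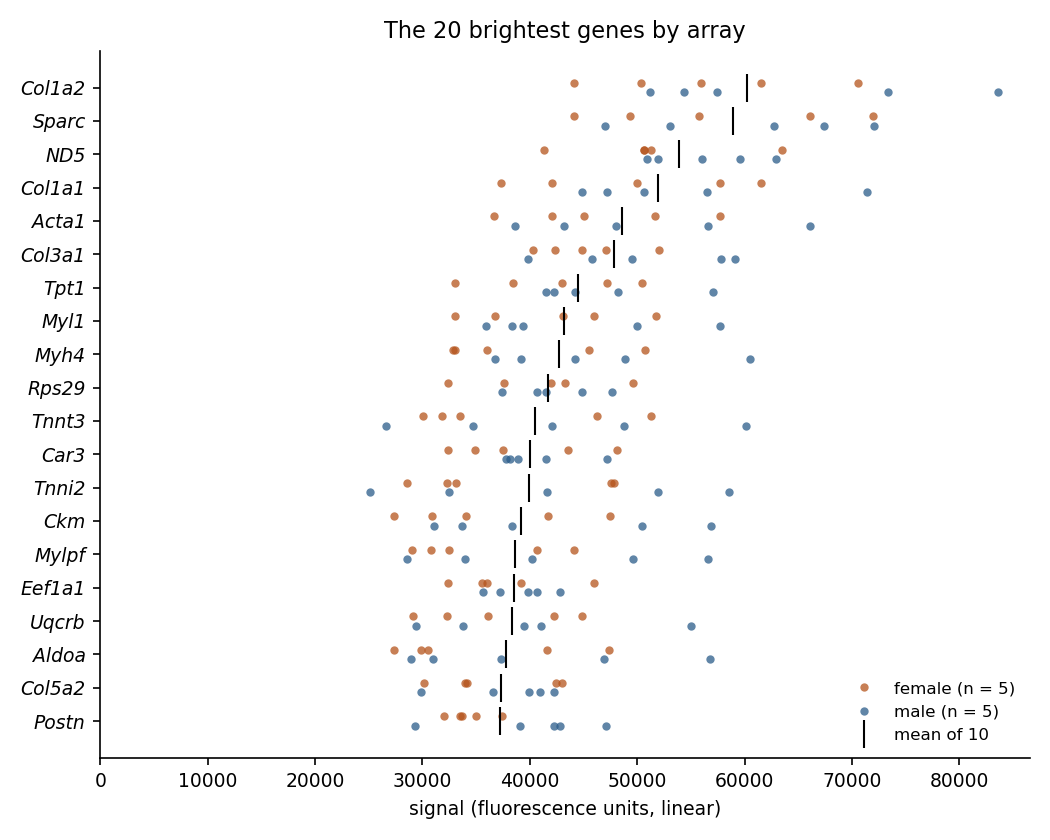
Signal of the 20 brightest genes on each normal array, on a linear axis in fluorescence units, with female arrays above male arrays in each row and a bar at the mean of 10. Col1a2 at the top averaged 60231 and Postn at the bottom 37218, and female and male points overlap in every row.

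Genes of bone cells held 1.86 ± 0.20% of the summed signal (SD over 10 arrays), with 30 of 38 listed genes P on all 10 arrays. The share was 1.69, 2.02, 1.77, 1.72 and 2.15% on female arrays 1 to 5, against 2.01, 1.99, 1.49, 1.79 and 2.00% on male arrays 1 to 5. Female and male ranges overlapped, and male array 3 was the lowest of the 10. Lists differ in length and in their probes, so such shares compare arrays for a list and not one tissue with another.

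Among osteoblast genes all 12 with a probe set of 1 symbol were P on all 10 arrays. Ibsp, bone sialoprotein, averaged 19330 ± 3075, with a lowest value of 14735 and a highest of 24162. Alpl, the phosphatase that frees phosphate for mineral, averaged 8965 ± 2188. Sp7, the transcription factor osterix, averaged 2945 ± 593, Pth1r, the parathyroid hormone receptor, 4428 ± 741, and Ifitm5, a membrane protein of mineralizing osteoblasts, 3003 ± 824. Spread over the 10 arrays was given as the SD of log2(signal + 16), which had a median of 0.23 over all 9866 genes. The osteoblast genes lay between 0.20 and 0.41, with a median of 0.28. None of the 12 was among the 5% of genes with the widest spread, a list too short for that to stand apart from the share over all genes.

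Osteocyte genes were present on all arrays except for Sost, the Wnt antagonist sclerostin, which reached P on 9 of 10. Phex, the endopeptidase that Hyp mice lack, averaged 3915 ± 995, with 3388, 3472, 4302, 5171 and 5764 on female arrays 1 to 5 and 2943, 3789, 2391, 4003 and 3927 on male arrays 1 to 5. The highest 3 values were female and the lowest 2 male, and the groups overlapped. Mepe, a matrix phosphoprotein, averaged 698 ± 206, and Dkk1, a second Wnt antagonist, 650.4 ± 121. Fgf23, the hormone by which bone lowers blood phosphate, was P on every array at a mean of 140.9 ± 29.95, with a lowest value of 93.5 and a highest of 203.5.

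Probe sets of the same gene disagreed in spread. Dmp1 had SDs of 0.14 and 0.15 on its 2 bright probe sets and 0.50 on a dimmer one at 3121 ± 1040.5. Col1a1 had 0.28 on its bright probe set and 0.92 on a dimmer one, whose signal ran between 680.9 and 5811. The spread of a gene below therefore means that of 1 probe set.

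Osteoclast genes were detected in the flushed shaft. Ctsk, cathepsin K, averaged 23088 ± 2965, Acp5, the tartrate-resistant acid phosphatase, 20094 ± 2637, and Mmp9, a gelatinase, 11406 ± 2229. Each of the 3 had its lowest value on male array 3, at 16526, 14488 and 7128. Of 13 listed genes 12 were P on all 10 arrays, and Ocstamp, a cell fusion protein, was P on 8.

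Skeletal muscle genes held 3.59 ± 0.74% of the summed signal, and 26 of the 27 listed genes were P on all 10 arrays, 17 of them among the 100 brightest. The share was 4.16, 4.00, 3.24, 2.88 and 3.17% on female arrays 1 to 5 and 4.86, 4.08, 4.01, 3.11 and 2.42% on male arrays 1 to 5. It ranged 2.01-fold between male arrays 5 and 1, which were the lowest and the highest of all. Myh1, a fast heavy chain, averaged 36881 ± 8309. Ttn, the giant spring titin, averaged 34229 ± 4685 and had the smallest spread of the list at 0.21. Fast-fibre genes as a list were brighter and moved less than slow-fibre genes, as described with the most variable genes. All 12 fast-fibre genes had their highest signal on male array 1.

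Marrow genes held 0.83 ± 0.20% of the summed signal, with 47 of 90 listed genes P on all 10 arrays. The share was 0.70, 0.57, 0.91, 0.81 and 0.83% on female arrays 1 to 5 and 0.82, 0.64, 1.05, 0.76 and 1.23% on male arrays 1 to 5, with female array 2 lowest and male array 5 highest. With the 4 globin probe sets of several symbols added, a choice made after the values were seen, the share came to 1.57%. Adding the osteocalcin and osteopontin probe sets, chosen likewise, brought the bone share to 2.34%.

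Apart from the globins, whose probe sets of several symbols were brighter, the brightest genes of the marrow lists were those of neutrophils. S100a8 and S100a9, the paired calcium-binding proteins of neutrophil cytoplasm, averaged 21754 ± 5368 and 21373 ± 5279, and Ngp, a granule protein, 11805 ± 2629. S100a8 was lowest on female array 2 at 13267 and highest on male array 5 at 32338. Red cell precursors were represented by Slc4a1, the anion exchanger band 3, at 10015.2 ± 3259, and by Alas2, the first enzyme of heme synthesis, at 3755 ± 1473. Monocyte and macrophage genes had 13 of 16 members P on all 10, led by Csf1r, the receptor of macrophage growth factor that osteoclast precursors also bear, at 11591 ± 1607, and by Lyz2, lysozyme, at 7407 ± 1616.

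B cell genes were dim and 9 of 13 were P on all 10, led by Ighm, the immunoglobulin mu chain, at 1433 ± 251. Platelet genes had 5 of 8 members P on all 10, among them Ppbp, a platelet chemokine, at 4300.1 ± 2141. Of 6 eosinophil, basophil and mast cell genes and of 9 T and NK cell genes, 0 were P on all 10 arrays. Within those lists Prg2, Klrd1 and Prf1 were each P on 8 arrays, while Epx, Cpa3, Cd3e, Cd3d, Cd3g and Cd4 were P on 0 of 10.

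Vessel genes held 0.29 ± 0.026% of the summed signal, and 22 of 23 were P on all 10 arrays. The share was 0.32, 0.30, 0.27, 0.28 and 0.26% on female arrays 1 to 5 and 0.33, 0.31, 0.26, 0.31 and 0.26% on male arrays 1 to 5. Rgs5, a pericyte regulator of G protein signalling, was the brightest at 18808 ± 3075, followed by Acta2, smooth muscle actin, at 7517 ± 1511 and Pdgfrb, the pericyte growth factor receptor, at 4959.8 ± 793. All 15 endothelial genes were P on all 10, led by Plvap, a protein of capillary openings, at 2155 ± 373, Esam at 1944 ± 435 and Egfl7 at 1921 ± 385. Their SDs lay between 0.20 and 0.44, with a median of 0.29, and that of smooth muscle and pericyte genes was 0.28, against 0.23 over all genes. None of the 22 vessel genes was in the widest 5%, too few genes for that to stand apart from the share over all genes.

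Markers of neighbouring tissues were also detected, to a degree that differed by list. Of 10 cartilage genes 5 were P on all 10, with Col11a1, a minor fibril collagen that bone also makes, at 27773 ± 5667 and Col2a1, the main cartilage collagen, at 5003 ± 1501, while Col10a1 of the growth plate was P on 3 arrays. Of 8 tendon and fibrous tissue genes 7 were P on all 10, with Fmod, fibromodulin, at 17042 ± 3199 and Tnmd, tenomodulin, at 3841 ± 1264. Of 6 adipocyte genes Fabp4, a fatty acid carrier, and Adipoq, adiponectin, were P on all 10.

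**Figure D2:**
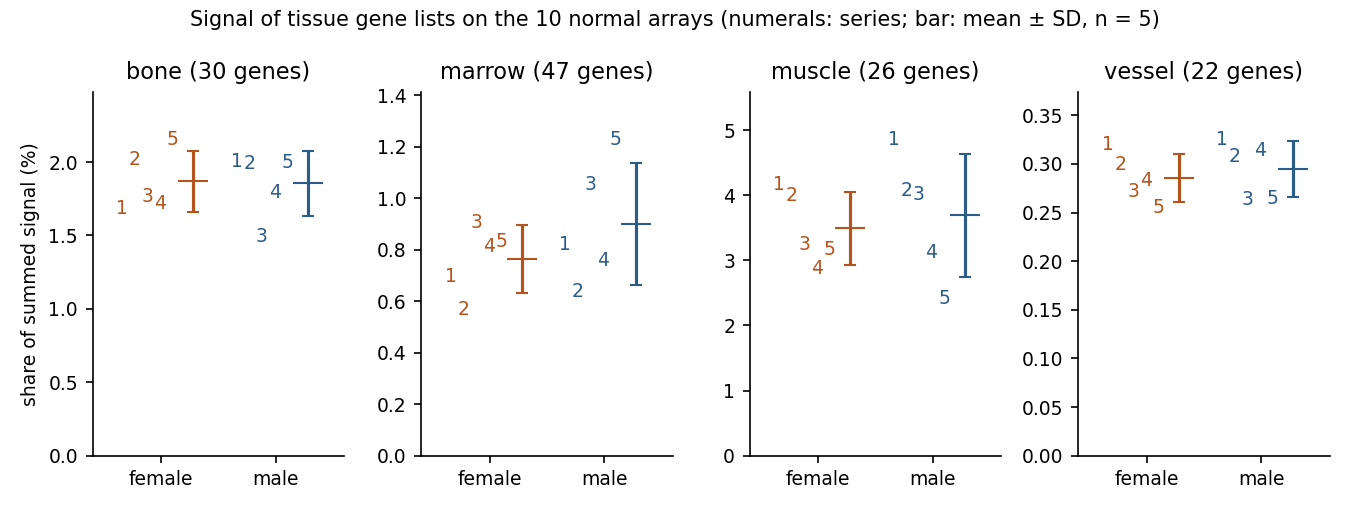
Share of summed signal, in percent on linear axes that start at 0, of genes listed for bone, marrow, muscle and vessel, with female arrays left of male arrays, numerals for the series and bars for mean ± SD (n = 5). Muscle ranged between 2.42 and 4.86% and marrow between 0.57 and 1.23%, with female and male values overlapping in each panel.

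Most transcripts were steady among the normal arrays. Over the 18844 probe sets P on all 10, the SD of log2(signal + 16) had a median of 0.25, with 5% of probe sets below 0.12 and 5% above 0.53, and 54 exceeded 1. The differences that did exist lay mostly between series. The series accounted for a median of 64.32% of a probe set's sum of squares while holding 44.44% of the degrees of freedom, and sex for 3.81% with 11.11%. Along the leading principal component (36.83% of the variance) the 4 arrays of series 1 and 2 scored between 18.98 and 36.37 and the 6 of series 3 to 5 between -35.07 and -2.04. Male array 3 stood apart on the second component, which held 16.92%, at 40.21, against -20.16 to 11.24 on the other arrays.

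**Figure D3:**
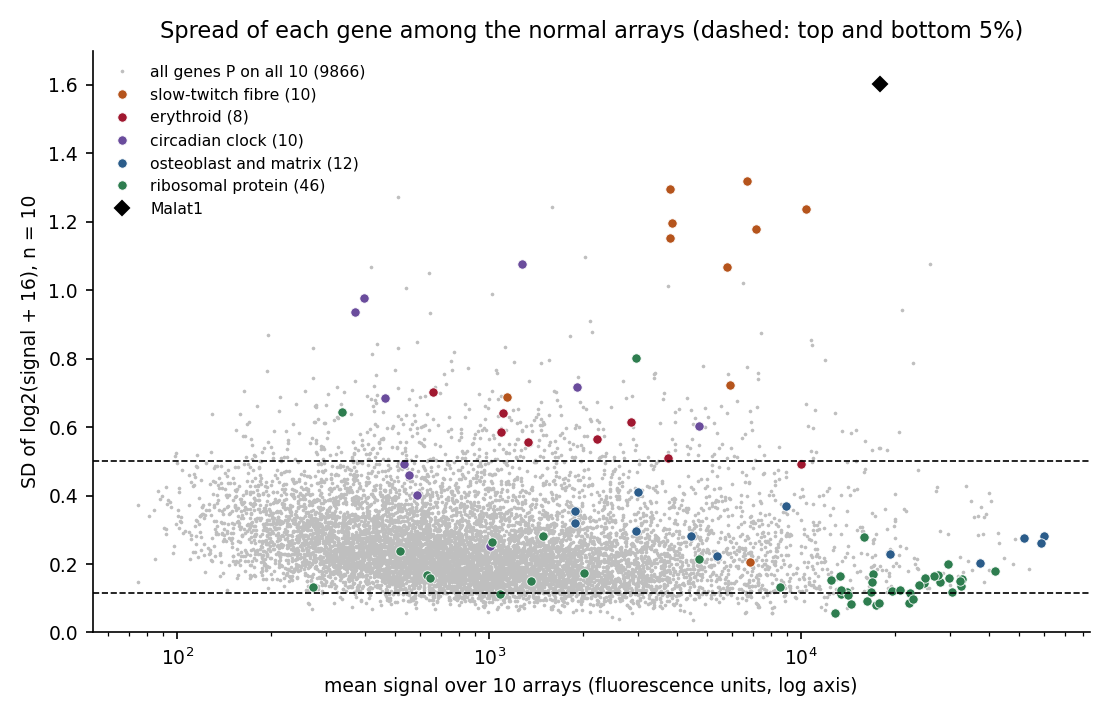
SD of log2(signal + 16) over the 10 normal arrays against mean signal on a log axis for 9866 genes, with lists coloured and dashed lines at the widest and narrowest 5%. Slow-twitch genes lie mostly above 0.50, osteoblast genes between 0.20 and 0.41, and ribosomal protein genes mostly at the bottom right.

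Slow-twitch muscle genes made up 7 of the 20 most variable genes. Myl3, Myl2, Tnnt1, Tnnc1, Myoz2, Csrp3 and Myh7 belong to the slow-fibre list, which was drawn up after the values were seen. Its 10 genes P on all 10 had a median SD of 1.17, and 9 of them lay in the widest 5%, against a median of 0.38 and 2 of 12 for fast-fibre genes and 5.01% of all genes. The fast-fibre genes were brighter, with a median of mean signals of 36901 against 5868 for slow-fibre genes. The part of brightness in the difference of spread was not tested. Myh7, the slow myosin heavy chain, had signals of 8019, 3031, 11105, 6103 and 5574 on female arrays 1 to 5 and 6096, 1591, 11839, 3279.6 and 1408 on male arrays 1 to 5. Tnnc1, the slow troponin C, had 11496, 3897, 12369, 9893 and 6171 on female arrays and 9086, 1415, 12096, 3882 and 1576 on male arrays. Female array 1, female array 3 and male array 3 were high for both genes, male arrays 2 and 5 were low, and the sexes overlapped.

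Male array 5 was the lowest of the 10 for 8 of the 10 slow-fibre genes. Csrp3, a Z-disc protein, read 310.7 there, against 1650 to 7681 on the other 9 arrays. Myh2, the heavy chain of fast oxidative fibres, read 3356 on male array 5, and 15841 or more elsewhere. Tpm3, a slow tropomyosin that other cells also make, differed by probe set. Its brightest, with an SD of 0.205, was highest on that array at 9281.5, while a dimmer one, with an SD of 1.375, was lowest there at 398.3. Ankrd2 (SD 1.10), a stretch-responsive protein of muscle, and Hspb7 (1.02), a small heat shock protein of muscle, were also lowest on male array 5. The summed slow-fibre signal ranged 5.15-fold between arrays and the fast-fibre signal 1.82-fold.

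Of the clock genes 6 of 10 were in the widest 5%. Dbp, a clock-controlled transcription factor, had 4269, 1474, 603.5, 420.2 and 943 on female arrays 1 to 5 and 1765, 1138, 1312, 481 and 371 on male arrays 1 to 5. Per2, a repressor of the clock, had 505, 600.4, 177, 117 and 526 on female arrays and 322, 555, 733, 93.5 and 349.8 on male arrays. Female array 4 and male array 4, of the same series, held the 2 lowest Per2 values of the 10.

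Npas2 and Arntl, activators of the clock, were high on the arrays with the lowest Per2. Npas2 had 95.1, 180.5, 533, 579 and 229 on female arrays 1 to 5 and 320.2, 383, 127, 675 and 590.4 on male arrays 1 to 5. Both array 4 samples were among its 3 highest, and female array 1, the highest for Dbp, was its lowest. Arntl reached 836 and 834 on female and male array 4 and lay between 338 and 728 elsewhere. Tef, a further clock-controlled factor with an SD of 0.72, read 940.2 and 1017 on female and male array 4, 1060 on female array 3 and 957 on male array 5, and 1855 or more on the other 6 arrays. No hour of tissue collection is given in the sources used here.

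Some genes of fat and fibrous tissue also varied widely. Cyp2e1, a cytochrome of liver and fat, read 2032 on male array 3 and between 97.0 and 756 elsewhere, and Adh1, an alcohol dehydrogenase, between 148.5 and 1515. Adipoq, adiponectin, read 3204 on male array 3 and 2678.5 on female array 4, and between 995.7 and 1435 on the other 8. Fabp4, the other adipocyte gene P on all 10, had an SD of 0.42, outside the widest 5%, and read 19436.5 on male array 2, 19249 on male array 3 and 15238 on female array 4, so it did not single out the same arrays. A probe set named adipsin by the deposited description, a complement factor of fat, read 6803 on male array 3 and 7897 on female array 4. Of 7 tendon genes 5 were in the widest 5%, and 5 had their lowest value on male array 5, among them Tnmd at 1405 and Thbs4, a thrombospondin of tendon, at 1941. Without male array 5, 3 of the 7 were in the widest 5%. Col9a1, a cartilage collagen, was high on female arrays 1 and 4 and male array 3, at 856, 1064 and 784, and 277.5 or less on the others.

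Red cell precursor genes had wide spread, with 7 of 8 in the widest 5% and a median SD of 0.58. Alas2 read 3528, 3288, 3867, 1937 and 3364 on female arrays 1 to 5 and 3159.9, 2787, 7128, 3095 and 5396 on male arrays 1 to 5. Male arrays 3 and 5 were the highest 2 of the 10, and male array 3 was the highest for 7 of the 8 genes. Without male array 3, 4 of the 8 were in the widest 5%, and 3 were after series means had been subtracted (the replicate block). The globin probe sets themselves had SDs between 0.22 and 0.33. The dimmest averaged 14300 ± 3305. It was highest on male arrays 5 and 3, at 19575.5 and 19305, and lowest on female array 4, at 9619. The others averaged 40249 or more, near the top of the signal range. They were highest on male array 1 and lowest on female array 4. Cell cycle genes had their highest value on male array 3 for 10 of 13, among them Mki67, a protein of dividing cells, at 10161, against 3642 to 7792 on the other arrays. That array also had the lowest bone share, and the part of cell makeup in either value was not tested.

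**Figure D4:**
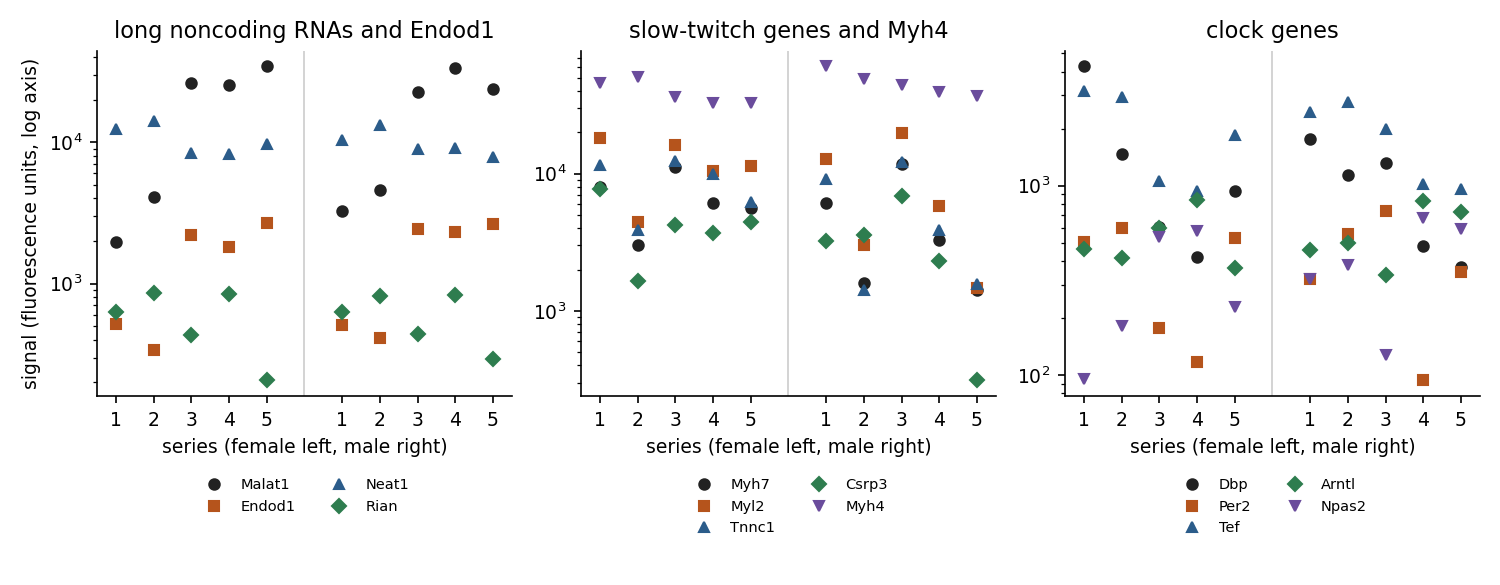
Signal on a log axis of genes with wide spread, by series, with female arrays left and male arrays right of the line in each panel. Malat1 and Endod1 are high in series 3 to 5 of both sexes. The slow-twitch genes are high on female array 1 and male array 3, and Myh7, Myl2 and Tnnc1 also on female array 3. Myh7, Myl2 and Csrp3 are lowest on male array 5 and Tnnc1 on male array 2, while Myh4 varies less. On array 4 of both sexes Dbp and Per2 are low while Npas2 and Arntl are high.

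The most variable gene was Malat1, a nuclear long noncoding RNA. It had signals of 1965, 4122, 26003, 25184 and 34257 on female arrays 1 to 5 and 3277, 4585, 22452, 33271 and 23625 on male arrays 1 to 5, an SD of 1.603. The highest of the 4 arrays of series 1 and 2 was 4585 and the lowest of the 6 of series 3 to 5 was 22452. Its 7 probe sets P on all 10 had SDs between 0.15 and 1.77, so the split was not seen on every stretch of the transcript. Neat1, another nuclear RNA, ran the other way, with 10427 to 14019.8 in series 1 and 2 and 7786 to 9720.2 in series 3 to 5. It was not called between series (adjusted p = 0.145 by limma), and its dimmer probe set overlapped, at 182.6 to 249.5 in series 1 and 2 and 194.5 to 281.8 in series 3 to 5. Endod1, an endonuclease domain protein, read 337 to 522 in series 1 and 2 and 1804 to 2672 in series 3 to 5, with SDs of 1.24, 0.58 and 0.27 on its 3 probe sets.

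A test of the 5 series with sex in the model called 624 of 24769 probe sets P on at least 5 arrays (2.52%), at an adjusted p below 0.05 by the moderated F test of limma. Without series 1, 2, 4 or 5 the count was 218, 182, 242 or 347, each with 1 series fewer in the fit. It was 0 with no filter on P calls (6009 at an unadjusted p below 0.05), 415 with a pseudocount of 1, 1364 with 64 and 1063 among probe sets P on all 10. Among genes taken by their brightest probe set P on all 10, 82 of 9866 were called (0.831%). All 6 arrays of series 3 to 5 lay above all 4 of series 1 and 2 for 40 of the 82 and below them for 19. Those genes were called by a test of the same series, so such separation is partly built in. The same count was not made over all 9866 genes. The 10 genes with the smallest p were Endod1 and Malat1 (adjusted p = 0.00511 each), Dnajb14, a co-chaperone, Evi5, a regulator of cell division, Atp8a1, a lipid flippase, Asb14, Xrn2, a nuclear exonuclease, Rian, Nrk, a kinase, and Prdm2, with adjusted p up to 0.0142.

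The series did not differ in only 1 way. Rian, a maternally expressed noncoding RNA of an imprinted cluster, had 626, 859, 435, 843 and 207 on female arrays 1 to 5 and 627, 817, 437, 835 and 293 on male arrays 1 to 5. Series 2 and 4 were high and series 5 was low in both sexes. Asb14, of a family of ubiquitin ligase adaptors, had 935, 876, 679, 441 and 283 on female arrays and 923, 847, 779, 509 and 326 on male arrays, so that series 1 was high and series 5 low in both sexes. Of the 20 most variable genes 4 were called, namely Endod1, Malat1, Atp8a1 and Nrk. The count was 0 for 10 slow-fibre, 8 erythroid, 10 clock, 12 osteoblast, 6 osteocyte and 12 osteoclast genes, lists too short for 0 to stand apart from the 0.831% called over all genes. Of 26 muscle genes 2 were called, namely Pygm, muscle glycogen phosphorylase, and Myoz1, a fast-fibre Z-disc protein. For Myh7 the adjusted p was 0.066 and for Dbp 0.114.

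Among the 20 genes of narrowest spread were proteins of membrane traffic, translation and chromatin, a description that was not tested against all genes. Vps35, a sorting protein of endosomes, had the narrowest spread, with an SD of 0.037 and signals between 4302 and 4667. Gdi2, which recycles Rab proteins, averaged 13149 ± 502, and Ppp2ca, the catalytic subunit of a phosphatase, 8072 ± 317. Golga7, Rab5a, Vapa and Nptn act in membranes and their traffic, Mrpl24, Mrpl49, Rps19 and Eif3e in translation, and Kat7, Bmi1, Ss18 and Zmym2 in chromatin. The remaining 5 were Tor1aip2 of the nuclear envelope, Prxl2c, Ahsa1, an activator of a chaperone, Slc25a36, a mitochondrial carrier, and 1110059G10Rik. The largest SD of the 20 was 0.065, and their means lay between 541 for Mrpl49 and 13149 for Gdi2. The 20 were picked by rounded SDs, and 1110059G10Rik, tied at 0.065, ranked 22 before rounding. These values are of 1 probe set per gene. Dimmer probe sets reached SDs of 0.317 for Vps35 and 0.717 for Ss18, while those of Vapa and Bmi1 had 0.096 and 0.099.

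Ribosomal protein genes were steady as a list, with a median SD of 0.15 over 46 genes against 0.23 over all genes. Of the 46, 11 were in the narrowest 5%, which is 23.9%, against 4.93% of all genes. That count was 17 without female array 4 and 7 without male array 1 or male array 3. Rps19, at 12807 ± 511, had the smallest SD among them, 0.058. At the other end, 2 of the 46 were in the widest 5%, which is 4.35%, near the 5.01% of all genes. Rpl3l, a form of muscle, had the largest SD of the list, 0.80, with signals between 962 on male array 5 and 5730.4 on female array 1.

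Promoters of genes of wide and narrow spread are described side by side, with sequences for at least 80 of 100 genes in each set. The TATA box pattern TATANA was looked for on the strand of the gene between 40 and 20 bases before the RefSeq start, in assembly GRCm38.p6. It was present for 16 of 86 genes among the 100 most variable (18.6%), for 1 of 84 among the 100 least variable (1.19%), for 10 of 80 among the 100 brightest (12.5%) and for 161 of 8042 genes P on all 10 (2.00%). It was found in 915 of the 32851 promoters given (2.79%). On either strand the counts were 16, 1, 11 and 204 in the same sets, and 1145 of all promoters. The pattern was chosen after a narrower one had been counted, so these are descriptions. Promoters of 3 muscle genes are shown with the TATA pattern in capitals, 100 bases up to the base before the start, namely Tnnc1 (chr14:31208212-31208311, + strand), Tnnt1 (chr7:4515976-4516075, - strand) and Ckm (chr7:19410994-19411093, + strand).
Tnnc1: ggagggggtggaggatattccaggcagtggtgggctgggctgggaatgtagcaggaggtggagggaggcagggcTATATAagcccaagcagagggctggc
Tnnt1: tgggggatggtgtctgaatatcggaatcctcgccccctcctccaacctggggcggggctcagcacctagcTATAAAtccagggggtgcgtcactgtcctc
Ckm: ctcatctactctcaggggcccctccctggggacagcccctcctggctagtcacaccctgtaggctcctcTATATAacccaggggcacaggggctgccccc

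The pattern begins 26, 30 and 31 bases before the start in these 3 genes. Tnnc1 and Tnnt1 are slow-fibre genes of wide spread, at SDs of 1.18 and 1.20, and Ckm has an SD of 0.35. CG pairs were scarcer in the most variable set, while the least variable set lay near all genes. The ratio of CG pairs to the number that base composition gives, over 250 bases, had a median of 0.42 for the most variable set, 0.75 for the least variable and 0.74 for all genes. For comparison, 3 promoters of the steadiest genes are shown with each CG in capitals, namely Gdi2 (chr13:3537975-3538074, + strand), Ppp2ca (chr11:52098724-52098823, + strand) and Vapa (chr17:65613556-65613655, - strand).
Gdi2: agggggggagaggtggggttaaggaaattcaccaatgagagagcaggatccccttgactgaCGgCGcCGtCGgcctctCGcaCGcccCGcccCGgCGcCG
Ppp2ca: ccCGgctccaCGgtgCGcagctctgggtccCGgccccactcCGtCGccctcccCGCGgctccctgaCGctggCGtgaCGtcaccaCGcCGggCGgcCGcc
Vapa: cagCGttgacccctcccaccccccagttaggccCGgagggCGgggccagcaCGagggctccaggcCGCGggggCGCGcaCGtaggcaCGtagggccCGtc

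These stretches hold 10, 15 and 11 CG pairs, against 0, 4 and 0 in those of Tnnc1, Tnnt1 and Ckm. The 6 genes were picked as examples of the counts, and they stand further apart than the sets do. Over 250 bases the ratio was 0.992, 0.935 and 0.896 for Gdi2, Ppp2ca and Vapa, against 0.75 for their set. It was 0.0, 0.283 and 0.23 for Tnnc1, Tnnt1 and Ckm, against 0.42 for the most variable set. Ckm, at rank 1870 in spread, is outside that set. Myl2 and Myl3, of wider spread than Tnnc1 and Tnnt1, had no TATA pattern in the window.

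Few probe sets were called between females and males, which does not show that few transcripts differed. With series as a block, 14 of 24769 probe sets P on at least 5 normal arrays were called by limma at an adjusted p below 0.05 (0.0565%), 4 of them higher in females (0.0161%) and 10 lower (0.0404%), and 1224 had an unadjusted p below 0.05. Female and male values did not overlap for 109 probe sets (0.44%). With 5 arrays a sex some probe sets separate by chance, so that count is not a number of differing probe sets. Of the 14 called, 0 were P on all 10 arrays. The filter let a probe set pass through the 5 arrays of 1 sex alone. That of Eif2s3y, P on 5 male and 0 female arrays, and others of the 14 entered only in that way. Without series 2, 2 probe sets were higher in females.

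Xist, the noncoding RNA that silences an X chromosome in female cells, had 12037, 15958, 9232, 7729.8 and 6911 on female arrays 1 to 5, against 109, 111, 83.4, 111 and 63.2 on male arrays 1 to 5. The groups did not overlap, with a log2 difference of female minus male of 6.50 ± 0.15 (SE) and an adjusted p of 3.43e-06 by limma. The deposited description names this probe set Tsix, the antisense partner of Xist, and the 2 cannot be told apart here. Of the other Xist probe sets, P on 0 male arrays, 2 were called in the same direction. The brighter of them was at least 267-fold higher in females, and the dimmer was not called in 11 of 21 alternatives. Transcripts of the Y chromosome were lower in females. The brightest probe set named Dby by the deposited description, an RNA helicase gene of the Y, had 0.8, 1.0, 0.6, 14.1 and 37.3 in females, against 3134, 2994, 2809.8, 3063 and 3129 in males. Since no female array called it P, it was at least 147-fold lower in females than in males, a bound on means of log2 signals with no female array counted below its lowest signal called P. Kdm5d, a histone demethylase, on its brighter probe set, Eif2s3y, a translation factor, and Uty on its brightest were P on 0 female and 5 male arrays. They were at least 24.8-fold, 90.4-fold and 23.3-fold lower in females. A dimmer Kdm5d probe set, P on 1 female and 4 male arrays, was not called (adjusted p = 0.287 by limma). Nor was a dimmer Uty probe set (0.0837 by limma). A dimmer Dby probe set, called as well, was P on 2 female arrays.

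A2m, alpha-2-macroglobulin, an inhibitor of proteases, was the only called gene with a symbol that is neither Xist nor Y-linked. It had 1374, 3727, 2685, 1950.4 and 2931 on female arrays 1 to 5, against 127, 263, 70.0, 345 and 119.7 on male arrays 1 to 5. It was P on 5 female and 4 male arrays. Females were higher in 5 of 5 series, the log2 difference was 3.78 ± 0.33 and the adjusted p by limma 0.0074. Without series 2 or series 5 the adjusted p was 0.0539 or 0.0749, it was 0.119 with no filter on P calls, and the log2 difference stayed between 3.48 and 4.11 whichever series was left out. The other 2 called probe sets carry no name in the files and were lower in females by log2 differences of -3.37 and -1.89. The second was not called in 14 of 21 alternatives, over which its adjusted p by limma ran between 0.00164 and 0.284.

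X-linked genes known to escape silencing leaned to females without being called. Kdm6a, the X partner of Uty, had 1149.6, 1555, 1891, 1635 and 2059.6 on female arrays 1 to 5, against 582, 696, 1180.3, 1092 and 931 on male arrays 1 to 5. Females were higher in 5 of 5 series, with a log2 difference of 0.90 ± 0.13 and an adjusted p of 0.15 by limma. Mid1, a microtubule-binding ubiquitin ligase, had a log2 difference of 0.90 ± 0.12 and an adjusted p of 0.147 by limma. Eif2s3x, the partner of Eif2s3y, had a log2 difference of 0.55 ± 0.10 on its brightest probe set and an adjusted p of 0.481 by limma, and its groups did not overlap. Over their probe sets Ddx3x had log2 differences between 0.298 and 0.425 and Kdm5c between 0.175 and 0.775, with adjusted p by limma of 0.822 or more.

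**Figure D5:**
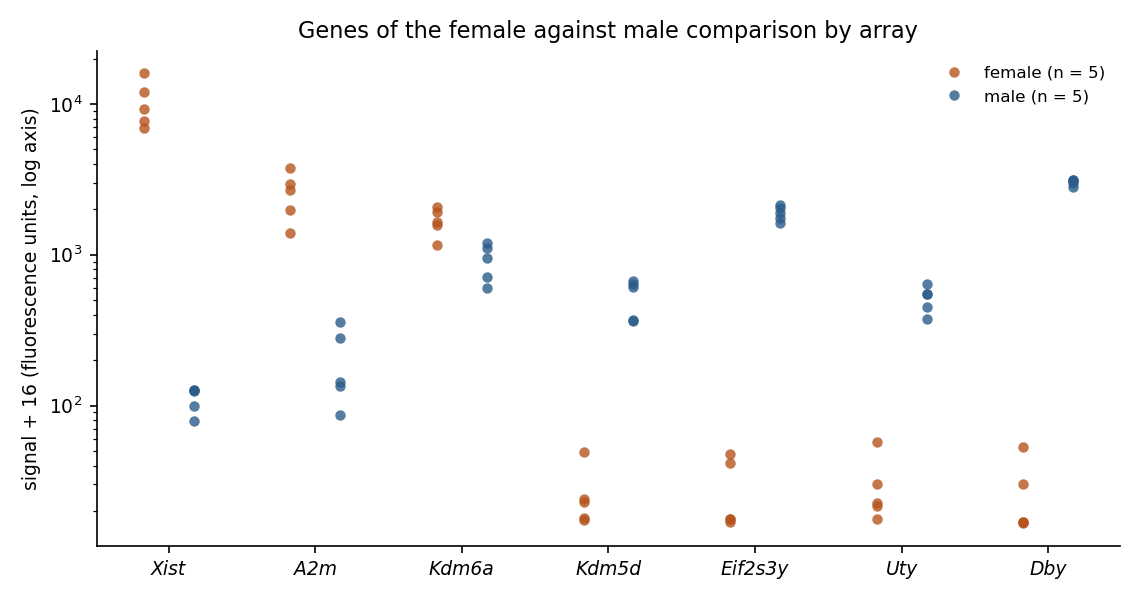
Signal plus 16 on a log axis of genes from the female against male comparison, with the 5 female arrays left of the 5 male arrays for each gene. Xist and A2m are higher in females, Kdm5d, Eif2s3y, Uty and Dby lie near the floor in females, and Kdm6a overlaps.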

How the data were processed

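Signals came from the deposited matrix of values, which per the file headers are linear fluorescence intensity per probe set, and detection calls (P, M or A) came from the deposited supplementary table. Per the submitters' processing notes the authors used GCOS, whose version, settings and scaling target are not given in the sources used here. The mean trimmed by 2% at each end was 500.0 on every array. RNA of 2 mice was pooled per array before labelling, per the labels' protocols, so p-values measure the spread between pools. An array gives no read depth, and the number of arrays limits the precision.

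Genes were named through the array annotation given (9852 of 9866 symbols are in the RefSeq table), and otherwise from the deposited descriptions. Control probe sets were left out. Values were taken as log2(signal + 16). Named were the 20 brightest, 20 most and 20 least variable genes, up to 4 per list, all calls between sexes and the 10 smallest p between series. Other genes named, among them Npas2, Arntl, Tef, Neat1, Tpm3, Fgf23 and Adipoq, and the slow-fibre and fast-fibre lists were chosen after their values were seen. The members and lists were chosen with earlier results of these data known.

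Tests used limma 3.58.1 in R 4.3.3 (lmFit and eBayes) with Benjamini-Hochberg adjustment, with series as a block for sex and sex as a term for series. The fits were tested on simulated data, where the sex test recovered 65% of log2 changes of 1 and 95% of changes of 2. Samples of the same series number deviated together, with correlations of 0.28 to 0.48 (median 0.42) between female and male deviations. Between different numbers the correlations were -0.48 to 0.33 (median -0.21), so the ranges overlapped. The labels state that a series shares littermates and processing. Figures and descriptions used Python 3.11.15, pandas 2.3.3 and matplotlib 3.10.9. Alternatives were other pseudocounts, filters, scalings and blocks, and leaving out arrays.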

Additional observations from a re-analysis of the deposited data

Results flagged for a closer look

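Groups of 5 arrays were screened for a single array far from the other 4, by a gap of more than 0.71 of the range. Of 176 groups, 8 gave such an array (4.55%), where chance gives about 1 group in 20. The Dbp signal was 4269.1 on Normal female array 1, against 420.2 to 1474 on the other 4. Kat7 read 917.1 on Normal female array 1, against 988.5 to 1007.8 on the others. Kdm5d read 32.9 on Normal female array 1, against 1.3 to 8.0 on the others, and none of the 5 was called P. Col9a1 read 784.2 on Normal male array 3, against 116 to 277.5 on the other males. Rab5a read 4464.6 on Normal male array 4, against 4062 to 4129 on the others. The dimmest called Uty probe set read 21.9 on Normal female array 4, against 0.5 to 1.5 on the others. A probe set with no name, called between the sexes, read 6.4 on Normal female array 2, against 43.3 to 50.2 on the other females. The dimmest called Xist probe set read 1693.8 on Normal female array 5, against 549 to 794 on the other females. The cause of these values was not tested.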

How the results depend on the processing

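The alternatives with added probe sets or with series 3 to 5 alone were chosen after seeing the data. Requiring P on at least 1 array gave 31192 probe sets in place of 18844. The bone and marrow shares came to 2.343% and 1.566% with probe sets of no single symbol added. The tendon count in the widest 5% was 3 by interquartile range, the erythroid count was 3 after subtracting series means as a replicate block, and the ribosomal count in the narrowest 5% was 22 after quantile normalization. Probe sets higher in females numbered 0 by limma among those P on all 10 (0 lower as well, and 911 at an unadjusted p below 0.05), 2 with no filter and 9 with all 20 arrays. The filter of P on all 10 leaves out each of the 14 called probe sets, so its 0 says nothing of those. With no replicate block, 4 were higher and 12 lower in females. Series calls numbered 415 with a pseudocount of 1, 1364 with 64, 0 by limma with no filter (6009 at an unadjusted p below 0.05), 1063 among probe sets P on all 10 and 2156 over all 20 arrays. The cause of each move was not tested.

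Leaving out 1 array at a time gave 4 to 8 erythroid, 3 to 5 tendon, 9 to 12 muscle and 8 to 9 slow-fibre genes in the widest 5%, and 7 to 17 ribosomal genes in the narrowest. The erythroid count of 4 was without male array 3, the tendon count of 3 without male array 5, the ribosomal counts of 7 without male arrays 1 or 3 and of 17 without female array 4. Without 1 series or array, probe sets higher in females numbered 2 to 4, with 2 without series 2, and those lower 9 to 11. Without 1 series, the series calls numbered 182 to 507, and 218 without series 1, 182 without series 2, 242 without series 4 and 347 without series 5. A2m had an adjusted p of 0.119 with no filter, while Dby and Eif2s3y were called under every alternative that tested them. The 20 most variable genes were all in the widest 5% under each alternative but 2, with 16 under the replicate block and 17 in series 3 to 5 alone, and the 20 least variable were all in the narrowest 5% throughout.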
